A study of Mus musculus with 6 samples.

Results

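Heart muscle is paced, excited and made to contract by a set of ion channels and calcium transporters, and the transcripts of 41 such genes were compared between the ventricles of mice with and without Trex1. The 41 genes were chosen by name: 3 of sodium channels, 5 of calcium channels, 18 of potassium channels, 2 of the pacemaker current, 3 of gap junctions and 10 of the sarcoplasmic reticulum and calcium cycling, out of 18193 genes with a probe set of their own. Of the 41, 39 had a probe set, and each was represented by the one with the highest mean signal over all arrays. Scn4a and Hcn4 were not analysed here. Of the 39, 36 reached the 40th percentile of mean signal and were tested, and Kcnj2, Gja5 and Sln did not reach it.

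Total RNA of heart ventricle tissue from 6 mice was hybridised to 1 Affymetrix-type array per animal, and the animals came as 3 pairs of littermates, named A to C, with 1 mouse of either Trex1 genotype (Trex1 WT or Trex1 KO) in a pair. The labels of pair C spell the gene Tre1, read here as Trex1. Wild-type and knockout hearts below refer to Trex1 alone. All 6 mice, the Trex1 WT animals included, also carried the RAG2KO genotype and so lack mature T and B cells. Trex1 encodes the main exonuclease that clears DNA from the cytosol. The labels give no age, strain or treatment, and do not say which cells of the heart the deletion affects. In bulk tissue, fewer cells of a type and less RNA per cell cannot be told apart.

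Each heartbeat starts with sodium entry through voltage-gated channels, is held by calcium entry through the L-type channel and is ended by potassium leaving through several families of channels. Calcium entry opens the ryanodine receptor of the sarcoplasmic reticulum, and the released calcium is pumped back by the SERCA pump, which phospholamban restrains. Gap junctions carry the impulse from cell to cell. Mouse ventricle relies for its short action potential on fast transient outward potassium channels.

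The tissue carried the markers of heart muscle. All 9 markers listed for ventricular muscle, not all of them particular to ventricle, lay above 69.8 on every array. That value is the highest signal of 27 bacterial control probe sets. The summed signal of the 9 was 335544 to 425432 in Trex1 WT and 369140 to 404890 in Trex1 KO. The atrial marker Bmp10 (8.59 to 44.7) and the atrial gene Sln (7.23 to 35.0), itself a member, stayed under the highest bacterial control, while Myl7 read 13.6 to 297, Dkk3 41.3 to 108 and Myl4 255 to 374. Nppa, the other atrial marker, read 10934 to 35782. Trex1 itself had signals of 340.1 to 887 in Trex1 WT and 9.45 to 34.2 in Trex1 KO, on a probe set that is annotated to Atrip as well. A measure of RNA quality did not overlap between the groups: the 3′ to 5′ signal ratio of Actb was 1.80 to 2.29 in Trex1 WT and 1.597 to 1.68 in Trex1 KO (two-sided exact permutation p = 0.1, and 6 arrays in 2 groups cannot give a smaller one). The same ratio of Gapdh overlapped, at 0.85 to 0.925 and 0.841 to 0.885 (exact permutation p = 0.2). The 18S signal, a measure of ribosomal RNA, was 12811 and 13708 in Trex1 WT A and B and 798 to 2834 on the other arrays. Whether either difference plays a part in the results below was not tested, except where a value with the Actb ratio as a covariate is given.

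No channel or calcium handling gene passed the test in either direction. Of 36 tested members, 0 had a higher and 0 a lower level in the knockout hearts at a Benjamini-Hochberg adjusted p under 0.05 over 27022 probe sets (limma). Of all probe sets 0.244% passed, and on the brightest probe sets 40 of 12808 tested genes were higher and 5 lower. With littermate pairs as a block 0 members passed as well, against 0.448% of all probe sets. In that fit 68 of the 12808 genes were higher and 12 lower. At an unadjusted p under 0.05 there were 3, which were Scn3b, Slc8a1 and Kcnj3, or 8.33% of members beside 5.36% of the 12808 tested genes. On these brightest probe sets, the smallest adjusted p of any member was 0.711 in limma (Scn3b), and 0.265 with the block (Kcnj3).

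The differences themselves were small for most of the members. Each log2 difference is that of knockout minus wild-type hearts, on the scale of log2(signal + 16), which understates changes of dim genes. The median was -0.05 over the 36 members and -0.02 over all tested genes, and 34 of the 36 lay within 0.5 of 0, or 94.4% beside 93.0% of all tested genes. The 95% limma interval of the difference, not adjusted for the number of genes, stayed inside a 2-fold change in both directions for 32 members and inside 0.5 log2 units for 20. The intervals of Scn3b, Scn4b, Cacna1g and Kcne1 reached past 2-fold.

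**Figure D1:**
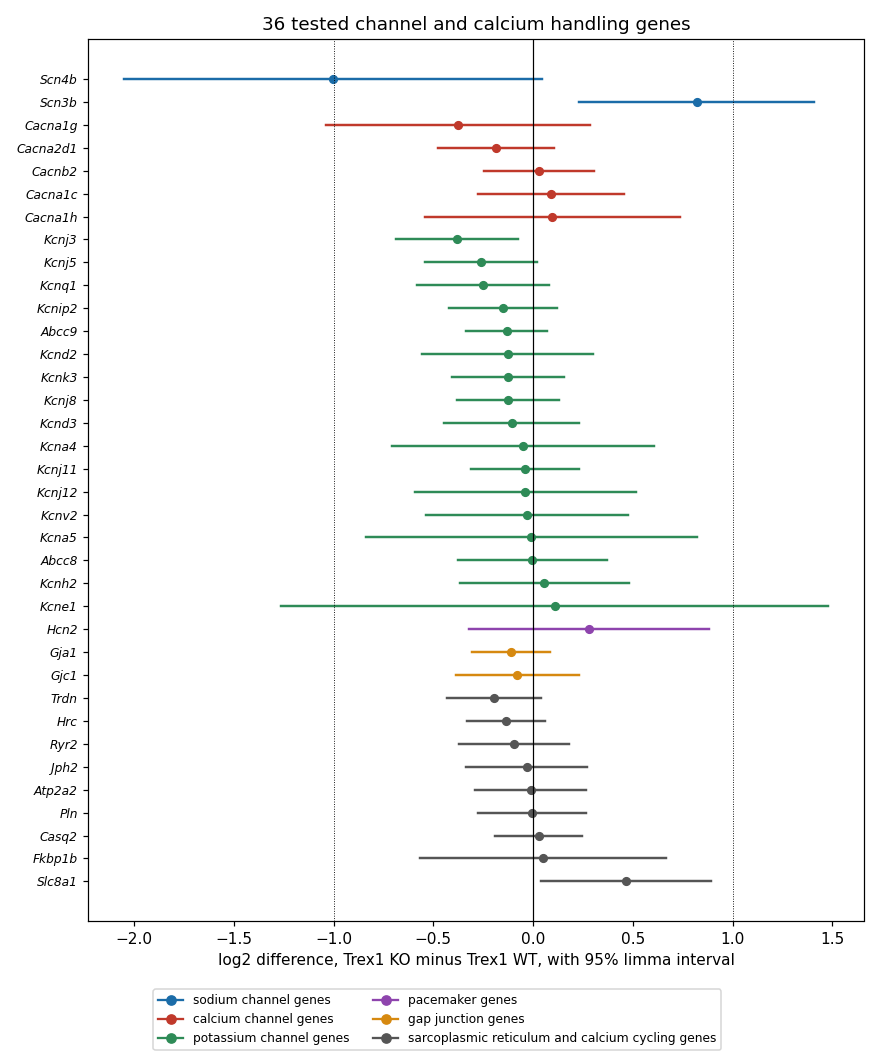
Log2 difference (Trex1 KO minus Trex1 WT, x axis) of each of the 36 tested members with its 95% limma interval, n = 3 per group, coloured by role; dotted lines mark a 2-fold change. Most points lie within 0.5 of 0, with Scn4b at -1.005 and Scn3b at 0.82 farthest out, and no member passed after adjustment.

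Signs leaned to the lower side on the brightest probe sets, and this turned with the probe set. The difference was below 0 for 26 members and above 0 for 10, and 72.2% below 0 compares with 55.5% of all tested genes. Of the members' 43 dimmer tested probe sets, 25 (58.1%) were above 0. The members' median was 0.0140 with the mean of a gene's probe sets, and -0.24 when the Actb ratio was a covariate. In all 3 littermate pairs the Trex1 KO animal was lower for 12 members (33.3%, with 17.8% of all tested genes) and higher for 2 (5.56%, with 13.1%). The 12 were Kcnj3, Kcnj5, Kcnq1, Kcnip2, Kcnd3, Kcnj8, Abcc9, Cacna2d1, Gja1, Ryr2, Trdn and Hrc. The 2 were Scn3b and Slc8a1. All 3 Trex1 KO arrays lay below all 3 Trex1 WT arrays for 5 members (13.9%, with 5.83% of all tested genes) and above them for 1 (2.78%, with 5.06%). These sizes were small, with medians of -0.08 in pair A, -0.09 in pair B and -0.06 in pair C, beside -0.02, -0.04 and -0.00 for all tested genes.

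**Figure D2:**
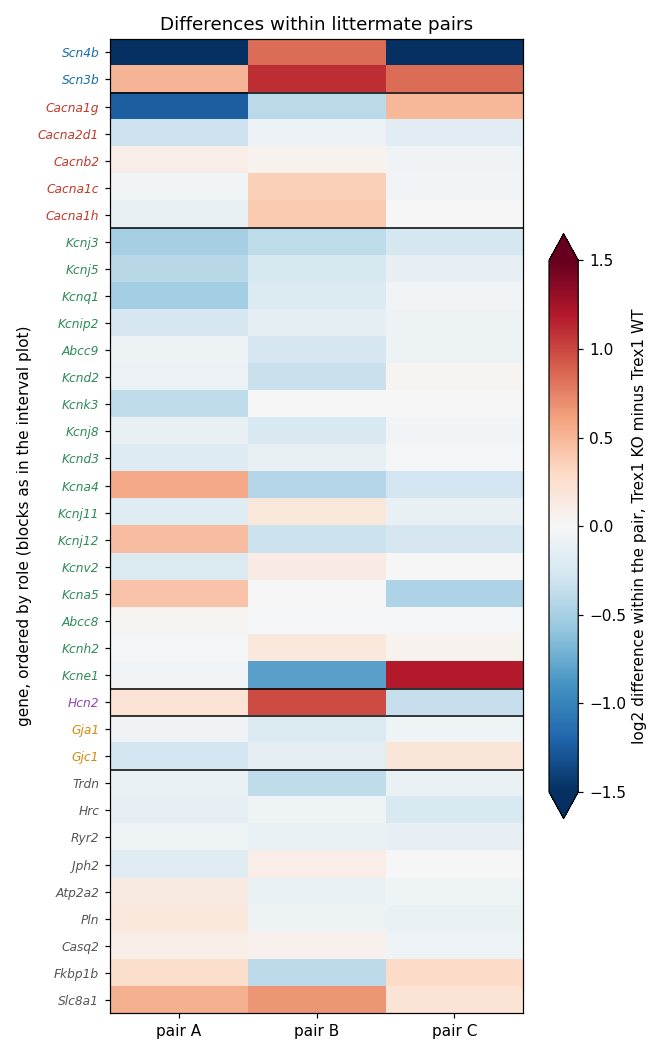
Log2 difference within each littermate pair (Trex1 KO minus Trex1 WT, colour) for the 36 tested members in rows, in blocks by role; colours stop at 1.5 in either direction. Kcnj3, Kcnj5 and Kcnq1 are lower and Scn3b and Slc8a1 higher in all 3 pairs, while Scn4b, Kcne1, Hcn2 and Cacna1g change sign between pairs.

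Both measured sodium channel genes encode accessory beta subunits, which adjust the gating and surface level of the pore-forming subunit. Scn3b read 100.3, 101 and 73.5 in wild-type hearts A to C, and 150.1, 236 and 144 in their knockout littermates. Every Trex1 KO heart lay above every Trex1 WT heart. The log2 difference was 0.82 (SE 0.26, 95% interval 0.23 to 1.41, limma adjusted p = 0.711). It was 0.61 with a pseudocount of 64 and 1.05 when the Actb ratio was a covariate. Its other probe set was not bright enough to test. Nerve cells also use this subunit, and their 2 tested markers lay on opposite sides of 0. Stmn2 read 271 to 292 in wild-type and 178 to 242 in knockout hearts, without overlap (-0.46, limma adjusted p = 0.887). Uchl1 was higher in the knockout of every pair (0.48, limma adjusted p = 0.893), and Snap25 and Tubb3 were too dim to test. The summed signal of the 4 was 573 to 815 and 628 to 753, and the part of nerve cells in the value of Scn3b was not tested.

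Scn4b had the widest range of signals over the 6 hearts among tested members, at 2.51 log2 units, with Kcne1 next at 2.50. Its signals were 1693, 419 and 832 in wild-type hearts A to C, against 317, 763 and 284 in their knockout littermates. The knockout was the lower animal in pairs A and C and the higher one in pair B, with within-pair log2 differences of -2.36, 0.84 and -1.499. The mean difference was -1.005 (SE 0.47, limma adjusted p = 0.927). Without both animals of pair B it was -1.93 with a limma adjusted p of 0.0439, a fit on 2 animals a group, and without pair A it was -0.33. The spread among the wild-type animals alone, from 419 to 1693, was wider than the distance between the group means of 981 and 455.

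**Figure D3:**
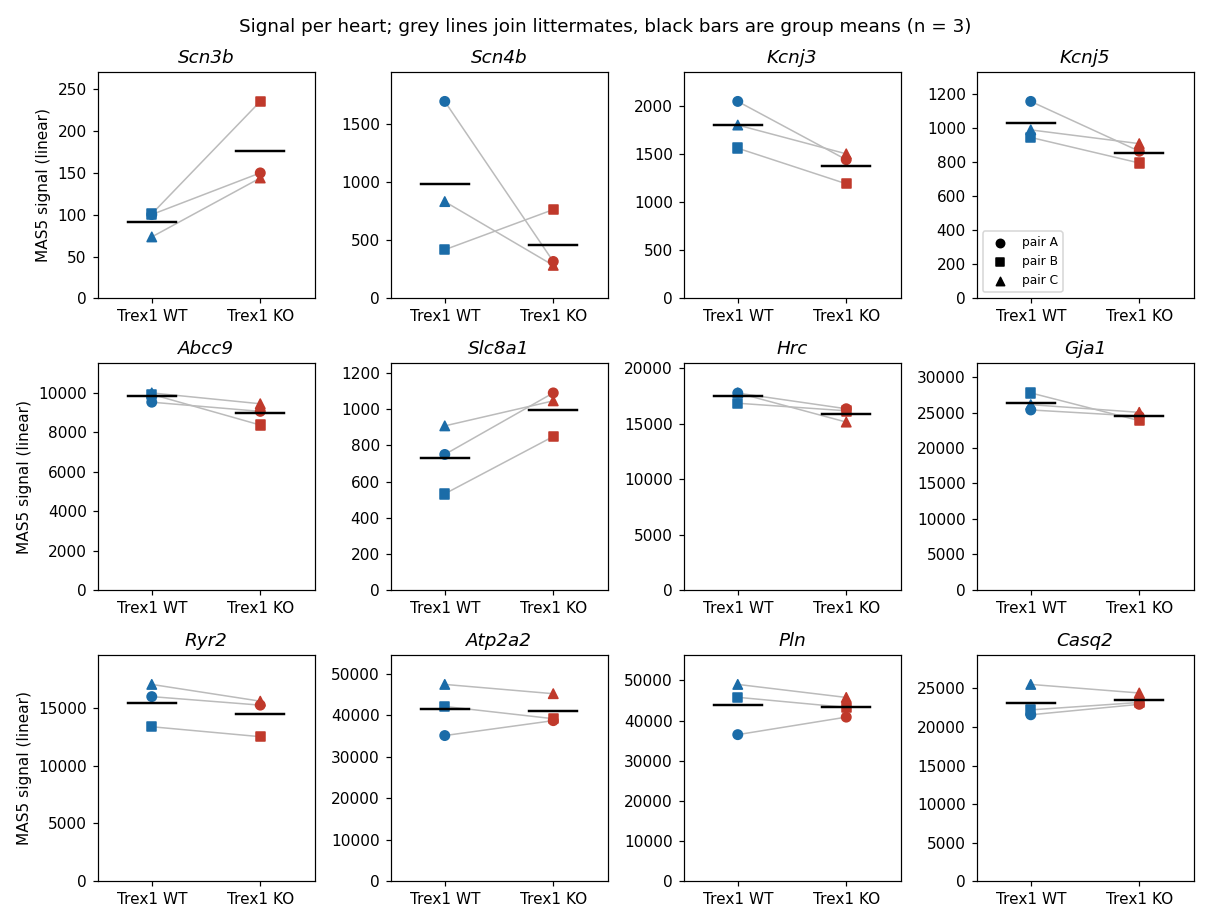
MAS5 signal (linear, y axis from 0) of 12 members in each of the 6 hearts; symbols give the littermate pair, grey lines join littermates, and black bars are the means of 3 animals. The Trex1 KO points lie wholly above the Trex1 WT points for Scn3b and wholly below for Kcnj3, Kcnj5, Abcc9, Hrc and Gja1, and the 2 groups overlap for the others.

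The calcium channel genes gave no member with separate groups. Cacna1c, the pore of the L-type channel that triggers contraction, had signals of 2655 ± 603 in wild-type and 2780.5 ± 227 in knockout hearts (SD, n = 3; log2 difference 0.09, 95% interval -0.27 to 0.46). Cacnb2, the beta subunit that brings this pore to the membrane, had 2369.9 ± 323 and 2409.9 ± 200.1 (0.03, interval -0.24 to 0.30). For both genes the groups lay within the spread of their animals.

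Cacna2d1, the alpha2delta subunit of the same channel, had the smallest p of the calcium channel genes. Its signals were 6389, 4805 and 4815 in wild-type hearts A to C, against 5135, 4536 and 4299 in the knockouts. Trex1 WT A stood above the other 5 hearts, and the rest overlapped (log2 difference -0.19, limma adjusted p = 0.955). Its second probe set gave 0.62 in the other direction (limma adjusted p = 0.927). The T-type channel genes, whose current is small in adult ventricle, were dim. Cacna1g had signals of 245, 184 and 138 in wild-type hearts A to C and 95.3, 136 and 202 in the knockouts, so the order within pair C was opposite to that in pairs A and B. Cacna1h had 122 ± 42.7 and 128 ± 21.7 (log2 difference 0.10, 95% interval -0.54 to 0.73).

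Among potassium channel genes, 15 of 17 tested members had a difference below 0, with a median of -0.11, and 0 passed in limma. Kcnj3 and Kcnj5 encode the subunits that join to form the acetylcholine-gated inward rectifier, through which the vagus nerve slows the heart, and which is known best from atrium and nodes. Kcnj3 read 2045, 1559 and 1799 in wild-type hearts A to C, and 1439.99, 1189.85 and 1501 in their knockout littermates. Kcnj5 read 1156, 945 and 989 in the wild types, against 864, 795 and 909. For both genes each knockout heart lay below each wild-type heart, with pair B lowest in both groups.

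The log2 difference of Kcnj3 was -0.38 (SE 0.14, 95% interval -0.69 to -0.08, limma adjusted p = 0.788, and 0.265 with the block). Its next probe sets gave -0.24 and -0.04. That of Kcnj5 was -0.26 (SE 0.13, interval -0.54 to 0.02, limma adjusted p = 0.942, and 0.584 with the block), while its dimmer probe set gave 0.58, so the direction of Kcnj5 rests on the probe set chosen. When the Actb ratio was a covariate the differences were -0.47 for Kcnj3 and -0.26 for Kcnj5. Of the 4 tested atrial markers, 0 passed in limma and Nppa alone passed with the block. Nppa, which ventricle also makes under load, read 10934 to 19078.5 in wild-type and 28144.5 to 35782 in knockout hearts (0.996, limma adjusted p = 0.126, and 0.00886 in the block fit). It made up nearly all of the list's summed signal, 11378 to 19430.3 and 28674 to 36326. Myl4 differed by -0.21, 0.48 and 0.28 in pairs A to C and Myl7 by 0.79, -1.97 and 2.19. Dkk3 differed by 0.69, 0.38 and 0.64, and exceeded the highest bacterial control on 4 of 6 arrays. The mean difference was above 0 for all 4 tested atrial markers, the side opposite to Kcnj3 and Kcnj5. The part of atrial tissue in the values of Kcnj3 and Kcnj5 was not tested.

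The bases just before the starts of Kcnj3 and Kcnj5 are shown because these partner genes differed in the same direction in all 3 pairs, and those of Slc8a1 because it differed in the opposite one. They come from RefSeq on the build GRCm38.p6, 5′ to 3′ on the strand of the gene, and end 1 base before the annotated start. Capitals mark a muscle E-box (CAGCTG) or a GATA box (AGATAA) on either strand. The windows are chr2:55435720-55435969 on the + strand, chr9:32344345-32344594 on the - strand and chr17:81738388-81738637 on the - strand.
Kcnj3: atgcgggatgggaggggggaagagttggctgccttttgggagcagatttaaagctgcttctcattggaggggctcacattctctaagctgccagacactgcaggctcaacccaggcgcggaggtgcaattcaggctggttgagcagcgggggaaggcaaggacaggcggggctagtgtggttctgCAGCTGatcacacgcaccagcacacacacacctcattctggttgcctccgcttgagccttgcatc
Kcnj5: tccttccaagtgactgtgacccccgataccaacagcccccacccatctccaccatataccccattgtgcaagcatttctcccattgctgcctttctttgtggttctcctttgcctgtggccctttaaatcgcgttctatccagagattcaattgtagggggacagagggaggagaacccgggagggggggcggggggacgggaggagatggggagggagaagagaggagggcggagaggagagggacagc
Slc8a1: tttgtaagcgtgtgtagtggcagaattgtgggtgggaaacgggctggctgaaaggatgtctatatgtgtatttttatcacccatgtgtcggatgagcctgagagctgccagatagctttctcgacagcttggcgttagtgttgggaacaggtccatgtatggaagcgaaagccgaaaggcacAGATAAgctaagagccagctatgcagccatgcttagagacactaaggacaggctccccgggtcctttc
The Kcnj3 window holds 1 E-box, 65 bases before the start, the Slc8a1 window 1 GATA box, 68 bases before it, and the Kcnj5 window neither. RefSeq windows were found for 28 of the 41 members (32 windows of 250 bases, since some genes have several starts). The E-box was in 9 of the 32 (28.1%) and in 13.0% of all 32851 windows, and the GATA box in 3 (9.38%) and 9.99%. The interferon-stimulated response element (GAAA, any 2 bases, GAAA) was in 0 of the 32 and in 2.98% of all windows, and the MEF2 box (CTA, any 4 bases, TAG) in 0 and 3.20%. These 4 were taken from 9 motifs searched, with the matches known.

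Other genes of repolarising potassium channels had smaller differences than Kcnj3, though Kcnq1 came close to Kcnj5. Kcnd2 and Kcnd3, pores of the fast transient outward current, had signals of 1257 ± 173 and 739 ± 93.8 in wild-type hearts and of 1170.3 ± 305 and 685 ± 93.5 in knockouts (log2 differences -0.13 and -0.11). Kcnip2, the subunit that raises their surface level, had 3473 ± 305 and 3133 ± 424 (-0.15, 95% interval -0.42 to 0.12), and its 2 dimmer probe sets gave 0.28 and 0.24. Kcnq1 and Kcnh2 form the slow and rapid delayed rectifiers. Kcnq1 had 1428 ± 84.3 and 1211 ± 245 (-0.25, SE 0.15, limma adjusted p = 0.955), with within-pair differences of -0.51, -0.21 and -0.04. Kcnh2 had 1413 ± 330 and 1464 ± 308 (0.06). The silent subunit Kcnv2 had 364 ± 105 and 349.6 ± 60.8 (-0.03), and Kcna4, of the slow transient current, 95.5 ± 15.7 and 93.9 ± 32.2 (-0.05). None of these differences exceeded the spread within its groups by the test.

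ATP-sensitive potassium channels open when the cell's energy falls, and pair a pore (Kcnj11 in muscle cells, Kcnj8 mainly in vessel walls) with a sulphonylurea receptor (Abcc9 or Abcc8). Abcc9 read 9534, 9934 and 10005 in wild-type hearts A to C, and 9067, 8374 and 9455 in their knockout littermates. The groups did not overlap, yet Trex1 KO C lay only just under Trex1 WT A (log2 difference -0.13, SE 0.09, limma adjusted p = 0.955). Its second probe set gave -0.21, also without overlap, and its dimmest 0.02. Kcnj8 had 1720 ± 186 and 1571 ± 82.8 (-0.13, 95% interval -0.38 to 0.13). Kcnj11 had 2471 ± 312 and 2394 ± 196 (-0.04), and Abcc8 592 ± 98.4 and 591 ± 94.5 (-0.00). The ratio of Abcc9 to Kcnj8 within an array moved by 0.03 (pair A), -0.02 (pair B) and -0.04 (pair C) log2 units. Of 8 smooth muscle and pericyte markers, cells rich in Kcnj8 and Abcc9, 7 were below 0 (87.5%, with 55.5% of all tested genes). The median was -0.25 and 0 passed in limma. In every pair the knockout was lower for 5 of them (62.5%, with 17.8% of all tested genes). It was higher in every pair for 1 (12.5%, with 13.1%), Tagln (0.43, limma adjusted p = 0.871). The summed signal of the 8, most of it from Rgs5 and Acta2, was 29839, 41045 and 42461 in wild-type hearts A to C. It was 25880, 30540.4 and 32623 in the knockouts, lower in each pair. Its part in the values of Abcc9 and Kcnj8 was not tested.

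Leak and inward rectifier channels set the resting potential. Kcnk3, an acid-sensitive leak channel, had 3718 ± 493 and 3398 ± 365 (-0.13), with 0.36 and 0.38 on its dimmer probe sets. Kcnj12, an inward rectifier, had 193 ± 38.7 and 190.4 ± 53.6 (-0.04, 95% interval -0.59 to 0.51). Kcnj2, which carries most of that current, could not be judged, because its probe set read 2.71 to 50.8 and stayed under the highest bacterial control on all 6 arrays.

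Hcn2 is the hyperpolarisation-activated channel gene that ventricle and conduction tissue share. It read 285, 182 and 446 in wild-type hearts A to C, and 332, 373 and 348 in the knockouts. The 3 knockout hearts lay close together inside the wide Trex1 WT range (log2 difference 0.28, SE 0.27, limma adjusted p = 0.959). It was -0.73 when the Actb ratio was a covariate and -0.02 without Trex1 WT B, so its sign depends on those choices. Of 5 conduction system markers with a probe set, 3 were tested, 3 were above 0 and 0 passed in limma. Shox2 and Isl1, too dim to test, gave -0.90 and -0.76, each lower in the knockout of 2 of the 3 pairs. Every knockout heart lay above every wild-type heart for Cntn2 (0.79, limma adjusted p = 0.860) and Irx3 (0.22, limma adjusted p = 0.943). The same held for 5.06% of all tested genes. Cntn2 was tested only through its higher knockout group, so its p is no support for a difference. It exceeded the highest bacterial control on 3 of 6 arrays. The list's summed signal, most of it from Irx3, was 2322, 2103 and 1817 in wild-type hearts A to C. It was 2501, 2306 and 2354 in the knockouts, higher in each pair. The part of conduction tissue in the value of Hcn2 was not tested.

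Gja1, the main connexin of ventricular muscle, read 25364, 27764 and 26107 in wild-type hearts A to C, and 24482, 23854 and 25027 in their knockout littermates. All knockout hearts lay below all wild-type hearts, by a small margin. The log2 difference was -0.11 (SE 0.09, 95% interval -0.31 to 0.09, limma adjusted p = 0.955). Of its 5 dimmer probe sets, the 3 brightest gave -0.19, -0.12 and -0.16, the next 0.53 and the dimmest -0.04. Gjc1, a connexin of the conduction system and of the embryonic heart, read 1182, 1295 and 986 in the wild types A to C and 964, 1179 and 1123 in the knockouts, which overlapped (-0.08). Gja5, the connexin of atrium, conduction fibres and arterial endothelium, read 1.93 to 11.5 and was not detected above the bacterial controls.

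Most genes that store, release and reclaim calcium had differences near 0. Atp2a2, the SERCA pump, had signals of 41524 ± 6172 in wild-type and 40994 ± 3615 in knockout hearts (log2 difference -0.01, 95% interval -0.29 to 0.27). Its inhibitor phospholamban, Pln, had 43769 ± 6488 and 43303 ± 2447 (-0.01, interval -0.28 to 0.26), with 0.02 and 0.01 on its other probe sets. The within-array ratio of Pln to Atp2a2 moved by 0.02 in pairs A and B and by -0.03 in pair C, in log2 units. Both genes read close to the top of the arrays, whose highest signal was 58127. The dimmest probe set of Atp2a2, with a mean signal of 171, gave -0.64 (unadjusted p = 0.0303, limma adjusted p = 0.871). Sln, the related inhibitor used in atrium, was too dim to test.

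Ryr2, the calcium release channel, had signals of 15437 ± 1881 and 14424 ± 1680.2 (-0.10), and Casq2, the calcium buffer beside it, 23118.5 ± 2112 and 23519 ± 788 (0.03, 95% interval -0.19 to 0.25). Trdn, which tethers the buffer to the channel, had 14387.5 ± 1619 and 12518 ± 621 (-0.20, SE 0.11, limma adjusted p = 0.955), with values from -0.60 to 0.10 on its other 5 probe sets. Jph2, which holds the reticulum to the cell membrane, had 6149 ± 945 and 5995 ± 752 (-0.03). Fkbp1b, a stabiliser of the channel, was dim, at 87.7 ± 11.8 and 92.1 ± 20.2 (0.05).

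Hrc, a calcium-binding protein of the reticulum, read 17769, 16854 and 17785 in wild-type hearts A to C, and 16356, 16169.9 and 15151 in their knockout littermates. The groups did not overlap, with Trex1 KO C the lowest heart. The log2 difference was -0.14 (SE 0.09, 95% interval -0.33 to 0.06, limma adjusted p = 0.955).

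Slc8a1, the sodium-calcium exchanger that expels calcium after each beat, stood apart from its group. Its signals were 749.9, 532 and 908 in wild-type hearts A to C, against 1091, 849 and 1047 in the knockouts. The knockout was higher than its littermate in every pair, although Trex1 KO B lay below Trex1 WT C. The log2 difference was 0.46 (SE 0.19, 95% interval 0.04 to 0.89, limma adjusted p = 0.890, or 0.314 in the fit with the block). Its 3 dimmer probe sets gave 0.10, 0.61 and 0.35. Trex1 WT B, the lowest heart, also had the highest Actb ratio, and without that array the difference was 0.26. When the Actb ratio was a covariate it was -0.08, so the direction did not hold under that setting.

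For several members litter C stood apart from the other litters. Litter C was the only one with high Xist (6747 and 7569, against at most 119 in litters A and B), so sex and litter cannot be told apart here. Both animals of litter C lay above all 4 of litters A and B for 11 of 36 members (30.6%, with 10.5% of all tested genes) and below them for 1 (2.78%, with 9.7%). The 11 included Kcnh2 (1752 and 1811 in litter C, 1094 to 1392 in the others), Kcnip2 (3806 and 3621, against 2850.1 to 3407) and Abcc8 (705 and 694, against 508 to 570.05). Litter C being highest was not particular to the members. It held for 4 of 9 ventricular muscle markers (44.4%) and 5 of 11 pump, exchanger and adrenergic genes (45.5%). Of 16 other channel genes it held for 0, and of all 45 tested related genes for 7 (15.6%). The 18S signal was also lowest in litter C, at 798 and 924, and its part was not tested.

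Kcne1 and Kcna5 showed the widest gaps between litters. Kcne1, the small subunit that slows the Kcnq1 channel, read 61.2, 121 and 171 in wild-type hearts A to C, and 58.8, 61.7 and 408 in their knockout littermates. Litter C was 1.67 log2 units above the mean of the others, and the genotype difference was 0.11 (SE 0.62, limma adjusted p = 0.993). On 3 of the 6 arrays Kcne1 did not exceed the highest bacterial control. Kcna5, the pore of an ultrarapid delayed rectifier, read 1124, 2083 and 978 in the wild types and 1523, 2085 and 704 in the knockouts. Its difference of litter C from the others was -0.98, and that between genotypes -0.01 (SE 0.37, limma adjusted p = 0.9999). With 1 litter against 2 these gaps were not tested, and the members named for them were chosen after their values were seen.

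**Figure D4:**
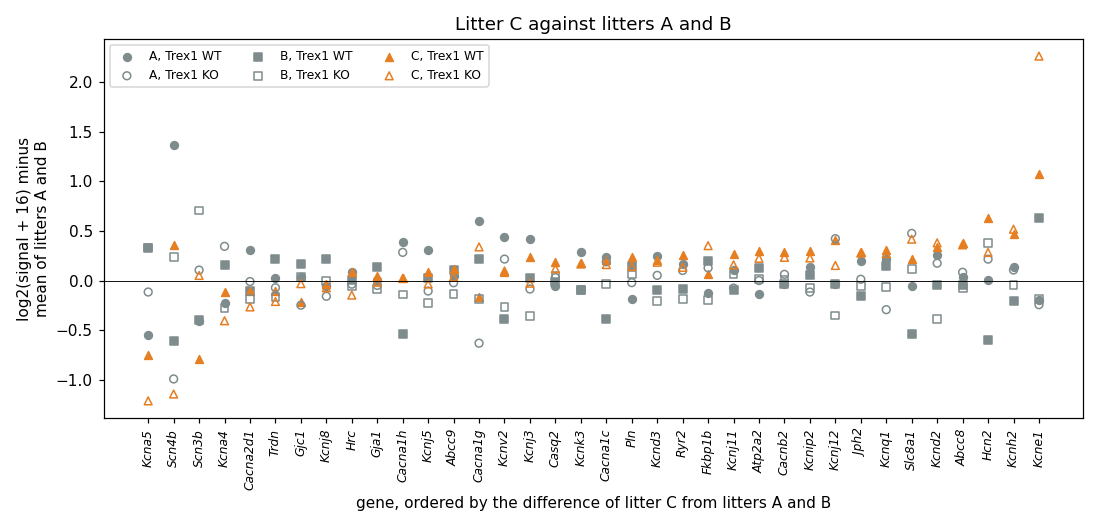
Each heart's log2(signal + 16) minus the mean of litters A and B (y axis) for the 36 tested members, ordered by how far litter C (orange) lies from the others (grey); filled symbols are Trex1 WT and open symbols Trex1 KO. Litter C lies lowest for Kcna5 and highest for Kcne1, and Scn4b and Scn3b spread widely among the grey points.

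Other genes of excitation and calcium control, 68 genes in 4 lists, gave the same count of calls. A probe set was found for 52, of which 45 were tested. In limma 0 passed with or without the block, against 0.448% and 0.244% of all probe sets. The median difference was -0.09, with 31 below 0 (68.9%, with 55.5% of all tested genes) and 14 above. At an unadjusted limma p under 0.05 there were 3, or 6.67% beside 5.36% of all tested genes. Ppp1r1a, an inhibitor of the phosphatase that reverses adrenergic phosphorylation, had the smallest p. It read 111, 149 and 94.99 in wild-type hearts A to C, and 36.4, 35.95 and 28.7 in the knockouts, the latter under the highest bacterial control. It was tested only because its wild-type signals are high, so its p is no support for a difference.

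In the list of other channels, the smallest p below 0 was that of Cacnb1, a calcium channel beta subunit best known from skeletal muscle, with 176 ± 46.6 and 81.1 ± 34.7 (-1.02, limma adjusted p = 0.712). Above 0 it was that of Cacna1d, an L-type pore of the pacemaker (0.49), which was tested only through its higher knockout group and exceeded the highest bacterial control on 2 of 6 arrays. Among calcium handling genes, Camk2d, the main calmodulin-dependent kinase of heart, had 1829.6 ± 146 and 1548 ± 43.1 without overlap (-0.24, limma adjusted p = 0.917), and the calcium entry channel Orai1 had 0.17. Pde3a, a phosphodiesterase, had 0.29 among the pumps and adrenergic genes. Of channel anchors and other gap junction genes, the junctional scaffold Tjp1 had -0.17 and the ankyrin Ank2 0.09. None of these values passed the test.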

How the data were processed

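Ventricular RNA of 3 Trex1 WT and 3 Trex1 KO mice was measured on 1 array each. The deposited values are probe set intensity summaries on a linear scale, which the authors made using MAS5, as the submitters' processing notes name it. Details not given in the sources used here include its version and settings. The mean of each array, with 2% trimmed at each end, was 500.0, so no further normalization was applied.

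Of 45037 probe sets that were not controls, 34945 had a single symbol, and 34741 of these matched the RefSeq gene table by Entrez identifier. Probe sets whose mean log2(signal + 16) reached the 40th percentile (27022) were fitted with limma 3.58.1 in R 4.3.3 (lmFit, and eBayes with an intensity trend), two-sided, with Benjamini-Hochberg adjustment over all of them and a threshold of 0.05. The procedure was tested on simulated data. Littermates were paired by the design text. Their deviations from group means correlated at 0.147 to 0.192, and those of other Trex1 WT and Trex1 KO arrays at -0.161 to 0.0101. The pair as a block, other pseudocounts, filters, scalings and left-out arrays were alternatives. Members, gene lists and the rule for values given per array (separate groups, or the smallest p or widest range within a role) were chosen with earlier results of these data known. No detection calls were used. Precision is limited by the number of arrays.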

Additional observations from a re-analysis of the deposited data

How the results depend on the processing

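The count of 0 higher and 0 lower members held under every alternative run except without both littermates of pair B, where 1 member, Scn4b, was lower. Left-out arrays or pairs gave 0 to 0 higher and 0 to 1 lower members. Of the 36 tested members, 7 kept the sign of their difference in every alternative run that tested them. They were Scn3b, Scn4b, Kcnq1, Kcnj3, Abcc9, Gja1 and Hrc. Scn3b was tested in 18 of the 19 alternative runs. The members' median was -0.0883 with a filter at the 60th percentile, over the members that reached it. The median was -0.0755 with quantile normalization, -0.0688 with a common median, -0.24 when the Actb ratio was a covariate and 0.0140 with the mean of a gene's probe sets. It ranged from -0.114 to 0.00150 without single arrays, and was -0.0751 without pair A, -0.0613 without pair B and -0.0750 without pair C. Over all probe sets, 59 were higher and 7 lower. These counts were 105 and 16 with the pair as a replicate block, 24 and 4 when no intensity trend was used, and 18 and 1 beside the Actb covariate. They ranged from 33 to 85 and from 3 to 9 without single arrays, and were 23 and 0 without pair A, 54 and 12 without pair B and 34 and 4 without pair C. The cause of these shifts was not tested. Kcne1, Cacna1h, Kcna4, Fkbp1b and Scn3b lay nearest the bacterial controls, where changes are hardest to see.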

Other observations

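The 36 brightest probe sets of the members had a median difference of -0.05, and their 43 dimmer tested probe sets, of 20 genes, had 0.02. Over all genes the medians were -0.02 for the brightest and 0.03 for the dimmer probe sets (44.5% and 54.4% above 0). None of the members' 43 dimmer probe sets passed in limma, and 1 had an unadjusted p under 0.05. Of the 10149 dimmer tested probe sets of all genes, 10 passed and 602 had such an unadjusted p.

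Within-array ratios of other partners kept one sign in some pairs of genes and not in others. The ratio of Casq2 to Ryr2 changed by 0.16, 0.16 and 0.06 log2 units in pairs A, B and C, and that of Trdn to Ryr2 by -0.03, -0.29 and 0.02. Kcnip2 to Kcnd2 gave -0.17, 0.21 and -0.11, Abcc9 to Kcnj11 0.11, -0.41 and 0.03, and Cacnb2 to Cacna1c 0.14, -0.31 and -0.01. Scn4b to Scn3b gave -2.87, -0.26 and -2.34, below 0 in each pair. The ratios of Kcne1 to Kcnq1 and of Sln to Atp2a2 are not read, since Kcne1 did not exceed the highest bacterial control on 3 of 6 arrays and Sln on none.

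Of the markers of other cells, 0 of 8 skeletal muscle markers passed in limma and 6 were too dim to test, with summed signals of 339 to 552 in Trex1 WT and 393 to 569.8 in Trex1 KO. Of 4 adipocyte markers with a probe set, 2 were tested and 0 passed in limma. Adipoq read 549 in Trex1 KO C and 23.7 to 66.3 in the other hearts. Retn read 5.95 to 97.8 in Trex1 WT and 56.0 to 332 in Trex1 KO. Both were tested only through their higher knockout group. Cidec and Lep, too dim to test, gave 0.02 and -0.49. Endothelial markers summed to 9748 to 14077 and 9233 to 11950.3, and macrophage markers to 11253 to 17630.1 and 13286 to 17169. Of the 6 macrophage markers, 3 were above 0 and 3 below, and 0 passed in limma. Adgre1 (0.37), Lyz2 (0.29) and Cd68 (0.20) were higher in the knockout of all 3 pairs (50%, with 13.1% of all tested genes). Cd163 alone was lower in all 3 pairs (16.7%, with 17.8%). Csf1r (-0.15) and Mrc1 (-0.07) were lower in 2 of the 3. Cd163 was lower with the block. It read 479, 694 and 382 in wild-type hearts A to C and 193, 209 and 153 in the knockouts (-1.38, limma adjusted p = 0.0504, and 0.00855 with the block).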
